A study of Caenorhabditis elegans with 2 samples.

Results

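The regions described here were candidate peaks of MES-4 that lay in introns of autosomal protein-coding genes and away from small structural RNA genes. They were taken from the relaxed list that the authors called on the pooled replicates. This list is permissive and includes background, so a region in it is not by itself a site of MES-4. A region was a member when its summit lay on one of the 5 autosomes, more than 220 bp from any tRNA, snRNA or snoRNA gene, outside the window from 500 bp upstream to 100 bp downstream of the 5' end of a protein-coding gene, inside a protein-coding gene and in none of its annotated exons. In all, 2566 of the 12028 regions in the pooled list met the rule, or 2566 of the 10295 on the autosomes. No measured value entered the choice other than the presence of the region in the list.

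Chromatin immunoprecipitation with sequencing was carried out with an anti-GFP antibody on whole young adult hermaphrodites of Caenorhabditis elegans strain RW10325, collected 63 h after starved L1 larvae were allowed to develop. All animals carried a stable transgene that encodes MES-4 with a GFP-FLAG tag at its C terminus, and chromatin was sheared by sonication. All samples formed 1 group of 2 biological replicates. No condition could thus be compared with another, and the regions were set against the annotation, against the other regions of the list and between the replicates. Whole animals mix germline and somatic nuclei, whose shares of the signal cannot be told apart. The control that peaks were called against, and animals without the tag, were not analysed here, and the read depth of each replicate is unknown.

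MES-4 is a methyltransferase of lysine 36 on histone H3. In the germline it acts on genes that were transcribed in the parental germ cells and passes their marked state to the primordial germ cells of the embryo, and on the X chromosome it is scarce. Introns of C. elegans are mostly short, and some of the longer ones hold whole genes for noncoding RNAs. RNA polymerase III transcribes tRNA genes and several other structural RNA genes, such as those of the RNase P RNA, the signal recognition particle RNA and the Y RNA. In a tRNA gene it is recruited through an A box and a B box that lie inside the transcribed sequence.

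The sequences under the summits of the strongest members are shown first because several of them hold paired boxes of this kind although no tRNA, snRNA or snoRNA gene is annotated within 220 bp. Capitals mark a match to GCNNANNNG, the core of an A box, followed by a match to GTTCNANNC, the core of a B box. Each run is 150 bases of the WBcel235 reference (ce11), read on the strand that carries the pair. These 8 belong to regions in the list of peaks that the authors kept as reproducible.
lips-10 (chrII:8441595-8441744, minus strand): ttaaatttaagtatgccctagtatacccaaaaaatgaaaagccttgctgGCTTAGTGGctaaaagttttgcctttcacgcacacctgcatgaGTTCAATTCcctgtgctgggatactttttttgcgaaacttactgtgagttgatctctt
sms-3 (chrIII:1600784-1600933, minus strand): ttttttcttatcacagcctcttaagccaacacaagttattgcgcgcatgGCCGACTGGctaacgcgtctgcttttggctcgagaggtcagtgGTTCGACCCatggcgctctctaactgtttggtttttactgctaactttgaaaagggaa
Y43F8B.2 (chrV:19521444-19521593, plus strand): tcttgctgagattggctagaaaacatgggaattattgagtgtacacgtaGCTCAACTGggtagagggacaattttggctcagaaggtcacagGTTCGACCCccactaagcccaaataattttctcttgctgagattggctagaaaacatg
Y73F8A.26 (chrIV:15476463-15476612, minus strand): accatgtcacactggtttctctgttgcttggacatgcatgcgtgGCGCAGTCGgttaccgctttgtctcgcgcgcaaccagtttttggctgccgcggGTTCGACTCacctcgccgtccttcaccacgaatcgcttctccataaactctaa
srt-52 (chrV:53436-53585, plus strand): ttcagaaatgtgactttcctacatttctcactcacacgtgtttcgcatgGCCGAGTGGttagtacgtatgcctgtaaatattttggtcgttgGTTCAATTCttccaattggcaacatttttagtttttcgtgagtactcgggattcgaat
tba-7 (chrIII:11371373-11371522, minus strand): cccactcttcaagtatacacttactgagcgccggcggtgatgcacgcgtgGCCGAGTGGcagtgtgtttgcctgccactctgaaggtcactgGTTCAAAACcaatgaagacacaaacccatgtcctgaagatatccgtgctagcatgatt
Y69A2AR.31 (chrIV:2657395-2657544, minus strand): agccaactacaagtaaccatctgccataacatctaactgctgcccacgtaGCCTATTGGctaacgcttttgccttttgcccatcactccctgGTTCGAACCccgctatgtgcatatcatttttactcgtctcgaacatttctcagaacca
unc-104 (chrII:7001586-7001735, plus strand): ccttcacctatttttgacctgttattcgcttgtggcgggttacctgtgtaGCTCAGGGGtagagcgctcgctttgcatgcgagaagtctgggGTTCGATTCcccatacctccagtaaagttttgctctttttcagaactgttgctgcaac

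The start-to-start spacing of the boxes was 43 bases at lips-10, sms-3, Y43F8B.2 and srt-52, 42 bases at tba-7, Y69A2AR.31 and unc-104, and 53 bases at Y73F8A.26. These patterns were chosen after such sequences had been seen, so their presence here is a description. A match gives letters in a window and not a transcribed gene, and transcription was not measured.

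A second set of 5 strong members held no such pair. It is shown because klp-6 and F55G1.15 hold annotated noncoding RNA genes, whereas Y105C5A.15, zip-7 and mes-4 hold none.
klp-6 (chrIII:5031584-5031733, plus strand): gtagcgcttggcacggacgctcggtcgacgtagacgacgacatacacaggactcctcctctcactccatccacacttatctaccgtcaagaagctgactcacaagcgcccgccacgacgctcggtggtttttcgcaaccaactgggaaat
F55G1.15 (chrIV:7499451-7499600, plus strand): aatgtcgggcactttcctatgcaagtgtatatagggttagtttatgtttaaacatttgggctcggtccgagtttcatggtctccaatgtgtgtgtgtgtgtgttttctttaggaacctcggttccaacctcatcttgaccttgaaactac
Y105C5A.15 (chrIV:15693381-15693530, plus strand): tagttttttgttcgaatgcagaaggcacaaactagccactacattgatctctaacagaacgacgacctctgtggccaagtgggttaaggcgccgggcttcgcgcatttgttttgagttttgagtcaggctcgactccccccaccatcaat
zip-7 (chrIV:16503741-16503890, plus strand): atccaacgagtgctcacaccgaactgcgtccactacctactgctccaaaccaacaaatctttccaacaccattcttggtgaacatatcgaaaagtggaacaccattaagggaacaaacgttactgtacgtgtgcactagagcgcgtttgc
mes-4 (chrV:13433640-13433789, plus strand): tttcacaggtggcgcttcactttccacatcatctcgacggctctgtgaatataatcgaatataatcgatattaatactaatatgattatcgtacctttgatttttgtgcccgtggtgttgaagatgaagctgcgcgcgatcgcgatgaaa

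Intron regions ranked slightly below the middle of the pooled list. Their median signal value, the authors' own score of a peak, was 34.0, and the values ran from 28.3 to 253. Ranked by that value among the 12008 nuclear regions, their median percentile was 55.8, with 0 the strongest and an interquartile range of 33.2 to 78.7. Exon regions chosen in the same way had a median percentile of 49.8, promoter regions 43.9 and intergenic regions 56.1. The rule applied to each replicate's own list gave 3410 intron regions with a median percentile of 55.6 in replicate 1 and 3382 with 56.2 in replicate 2. The order of promoter, exon and then intron or intergenic regions describes ranks within 1 list.

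Of the 2566 intron regions, 1018 overlapped a peak of both replicate lists by at least 1 bp, which is 39.7% (95% exact interval 37.8 to 41.6%). Over all nuclear regions of the pooled list the share was 46.7%, so the intron regions lay below this background. The background includes regions at small RNA genes, where the share was 86.7% on the autosomes. The share was 47.1% (45.6 to 48.7%) of the 3908 exon regions, 52.2% (49.7 to 54.6%) of the 1662 promoter regions and 40.3% (37.9 to 42.7%) of the 1669 intergenic regions. The interval of the intron regions overlapped that of the intergenic regions and lay below those of the other classes. The share fell with rank, from 100% of intron regions at ranks 1 to 440 to 16.3% at ranks 8001 to 12008. Intron regions ranked lower than exon and promoter regions, and the classes were not compared at equal rank. A further 721 intron regions overlapped a peak of replicate 1 alone, 690 a peak of replicate 2 alone and 137 a peak of neither. Among the 1018 with both, Spearman's rho between the ranks in the replicates was 0.21, given as a description over regions of the same libraries.

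The reproducible list kept 24 intron regions, or 0.94% (0.60 to 1.39%) of them, against 3.82% of the whole pooled list. It kept 0.95% of exon regions, 2.89% of promoter regions and 1.92% of intergenic regions. On the nuclear chromosomes these kept regions were the upper 440 of the pooled list by signal, so being kept and being high in signal are the same measure. The member just inside this limit was at unc-104 with a signal of 77.3 and rank 440, and the next member, at F11A10.6, had a signal of 76.4 and rank 456.

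**Figure D1:**
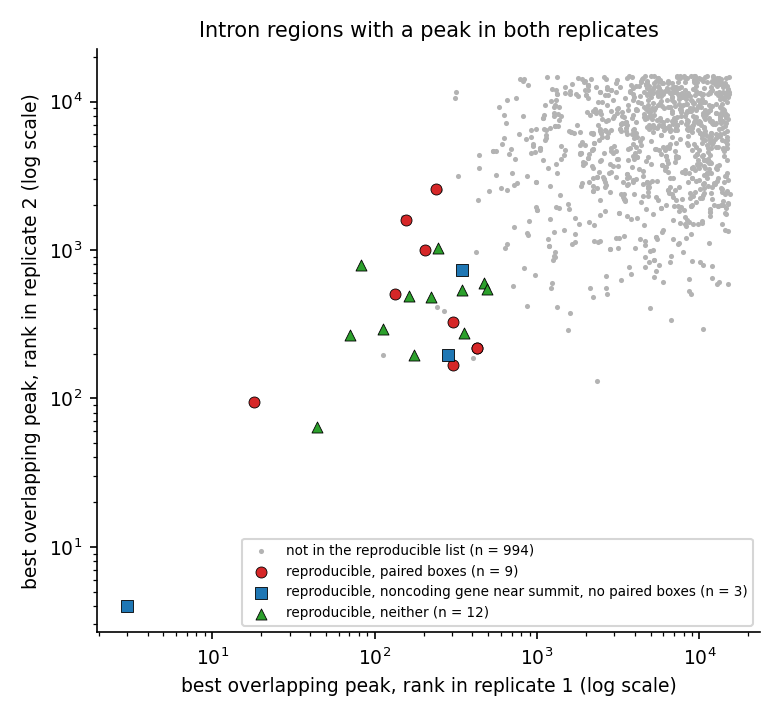
Rank in replicate 1 (x axis, log scale) against rank in replicate 2 (y axis, log scale) of the best peak that each intron region overlaps, for the 1018 regions with a peak in both. The 24 regions of the reproducible list are marked by shape as holding paired boxes, a noncoding gene near the summit without paired boxes, or neither, and the other 994 regions (grey) crowd at high rank numbers in both.

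All 24 reproducible intron regions overlapped a peak among the upper 1000 of replicate 1, and 21 of 24 did so in replicate 2. The reproducible list was taken from these same replicates, so high ranks in both follow largely from that choice. The 24 regions belonged to 23 host genes, with Y43F8B.2 counted for a pair of overlapping regions that shared the same replicate peaks. The introns were from 46 to 14097 bp long, 8 of 24 summits lay in the first intron of the host, and 17 of 24 regions, each about 440 bp wide, also covered annotated exon bases. Several summits lay close to the host's 5' end, at 211 bp in cyc-2.1, 259 in T07A9.14, 282 in sms-3, 284 in Y116A8C.43, 310 in tba-7 and 334 in mrrf-1. With a promoter window of 1000 bp upstream to 500 bp downstream, 18 reproducible intron regions were left.

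The strongest intron region lay in intron 5 of 9 of ints-8, which encodes a subunit of the Integrator complex, on chromosome I. Its summit fell inside rpr-1, the gene of the RNase P RNA. It had rank 3 in the pooled list, rank 3 in replicate 1 and rank 4 in replicate 2, and a pooled signal of 253. The next intron region, at lips-10, a lipase-related gene, was at rank 36, so the region at rpr-1 ranked above every other member in the pooled list. A further member at rpr-1, with its summit at position 13464170 and pooled rank 6025, overlapped the same replicate peaks.

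Paired boxes were found at 9 of the 24 regions, in the hosts shown above. The pair not shown was at the region of Y43F8B.2 with pooled rank 421, where the boxes were 86 bases apart. That region overlapped the other one of Y43F8B.2, so it is not a separate site. The region at lips-10 had rank 18 in replicate 1 and rank 95 in replicate 2, in intron 3 of 3, which is 198 bp long. In the first intron of sms-3, a sphingomyelin synthase gene, the ranks were 174 in the pooled list, 306 in replicate 1 and 167 in replicate 2. At srt-52, which encodes a predicted chemoreceptor, they were 267, 302 and 326. These 3 regions were high in both replicates.

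In Y43F8B.2 the regions had pooled ranks 191 and 421 and overlapped the peaks ranked 427 in replicate 1 and 217 in replicate 2. The 300-base windows there matched the tRNA gene Y113G7B.t1 with 82.7% identity over 52 bases and 75.9% over 58 bases. At Y73F8A.26 the ranks were 239, 134 and 508, and at tba-7, an alpha-tubulin gene, 328, 204 and 994. The region in intron 9 of 15 of Y69A2AR.31 had ranks 367, 155 and 1585. At unc-104, the kinesin that carries synaptic vesicle precursors along axons, they were 440, 240 and 2589. Replicate 2 placed the last 3 of these regions far lower than replicate 1 did.

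At unc-104 the summit, at position 7001620 of chromosome II, lay 7 bp from C52E12.t1, a tRNA pseudogene in intron 5 of 23, and the window matched the tRNA gene B0491.t1 with 98.5% identity over 68 bases. Pseudogenes were not among the small RNA genes of the rule. Over all 2566 members, 8 lay within 220 bp of a tRNA pseudogene, and the other 7 had ranks between 1953 and 11935.

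Annotated noncoding RNA genes lay within 220 bp of the summit at 4 of the 24 regions. Besides rpr-1 they were srpr-2.2, a gene of the signal recognition particle RNA in intron 2 of 12 of klp-6, a kinesin gene of ciliated neurons, and yrn-1, the Y RNA gene, in intron 6 of 11 of F55G1.15. The region at srpr-2.2 had rank 188 in the pooled list, 285 in replicate 1 and 196 in replicate 2, and its window had 3 further matches in the genome with at least 90% identity over at least 200 bases, between which reads may not be told apart. The region at yrn-1 had ranks 396, 345 and 731. In both cases the summit fell inside the noncoding gene. In the first intron of tba-7 the noncoding genes T28D6.15 and T28D6.13 held the summit and T28D6.10 lay 54 bp from it, and R144.16 and F55G1.20 overlapped or adjoined the RNA genes at klp-6 and F55G1.15.

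The other 12 reproducible members had neither paired boxes nor an annotated noncoding gene near the summit. Some still held parts of the pattern. The windows of mdt-26, Y116A8C.43 and T07A9.14 held GTTCNANNC outside a pair, and that of mdt-26 also held GGTTCGA. The run shown for Y105C5A.15 holds a GCNNANNNG match without a GTTCNANNC match. The highest was at zip-7, a bZIP transcription factor gene, with rank 47 in the pooled list, 44 in replicate 1 and 64 in replicate 2. The region at Y105C5A.15 lay in a first intron of 14097 bp and had ranks 157, 112 and 292. At frpr-10, a gene of the FMRFamide peptide receptor family, the ranks were 269, 176 and 197, and this region overlapped a stronger pooled region of rank 234 whose summit lay in an exon. The frpr-10 region, from 7962005 to 7962444, also covered the 3' end of csr-1 at 7962157, a germ granule and small RNA gene on the same strand. Its summit, at 7962225, lay outside csr-1, so the region was not counted for csr-1. At mdt-26, which encodes a subunit of the Mediator complex, the ranks were 274, 83 and 788.

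At Y116A8C.43 the ranks were 294 in the pooled list, 223 in replicate 1 and 484 in replicate 2, at T05C12.8 343, 244 and 1030, and at C33B4.4 382, 162 and 488. The window at C33B4.4 matched the snoRNA gene Y73B6A.14 with 85.7% identity over 56 bases. At T07A9.14 the ranks were 395, 473 and 596, and at M01H9.5 408, 493 and 545. At cyc-2.1, which encodes cytochrome c, they were 417, 355 and 277, and at mrrf-1, a gene of mitochondrial ribosome recycling, 420, 344 and 539. All of these peaks lay within the upper 1030 of both replicates.

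The gene of the tagged protein was itself a host. The region at mes-4 had rank 83 in the pooled list, 71 in replicate 1 and 267 in replicate 2. Its summit lay in intron 9 of 9, which is 52 bp long, 665 bp from the 3' end of the gene, and the region covered 340 exon bases. A second region of mes-4, with its summit in an exon, had rank 5356 in the pooled list, overlapped a peak ranked 592 in replicate 1 and overlapped none in replicate 2. Whether these reads came from the chromosomal gene or from the tagged transgene cannot be told apart in these lists.

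Signs of small RNA genes were most frequent among the strongest intron regions and fell to a low level below them. The paired pattern was chosen after sequences of this kind had been seen, so its share among the strongest regions is a description and not a test. Paired boxes were present in the 300-base window around the summit of 9 of 24 members at ranks 1 to 440, or 37.5% (18.8 to 59.4%), and of 4 of 56 at ranks 441 to 1000, or 7.14% (1.98 to 17.3%). The 9 include both of the overlapping regions of Y43F8B.2. Below rank 1000 the share was between 1.31% and 2.80% in each rank class. In exon, promoter and intergenic regions together it was 6.84% at ranks 1 to 440 and 3.30% at ranks 441 to 1000, and between 1.80% and 2.34% below. Over all intron regions 64 had a pair, or 2.49%, against 1.37% of the 89735 windows of 300 bases that tile the same introns. Intergenic regions held a pair more often, in 4.55% of cases, and exon and promoter regions less often, in 1.69% and 1.32%. Within the upper 1000 ranks the share was 16.25% of 80 intron and 9.26% of 108 intergenic regions. It was 2.86% of exon and 2.40% of promoter regions there. Pairs were thus not particular to introns.

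The 4 members with a pair at ranks 441 to 1000 lay in Y65B4A.2, again in Y69A2AR.31 and sms-3, and in dpy-21, which encodes a histone H4 lysine 20 demethylase of dosage compensation. The window in dpy-21, at rank 813, matched the tRNA gene Y59A8B.t3 with 85.1% identity over 67 bases. Thus sms-3 and Y69A2AR.31 each held more than 1 such region. The ranks of the sms-3 region at pooled rank 986 were 1309 in replicate 1 and 1954 in replicate 2, and those of the Y69A2AR.31 region at pooled rank 769 were 319 and 11629. The replicates thus placed the former alike and the latter far apart.

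The shorter B box core GGTTCGA was also most frequent at ranks 1 to 440. It can be part of the same B box and was also chosen with earlier results known, so it adds no independent sign. It was present in 7 of 24 members at ranks 1 to 440, 6 of 56 at ranks 441 to 1000 and 3.08% of all intron regions. It occurred in 2.53% of exon, 1.81% of promoter and 4.73% of intergenic regions, in 4.46% of all autosomal regions, which include those at small RNA genes, and in 2.08% of the windows that tile the introns. Both strands were searched, and a GGTTCGA can overlap a GTTCNANNC match. Similarity to an annotated tRNA, snRNA, snoRNA or other structural RNA gene was found for 7 of 24 members at ranks 1 to 440, 6 of 56 at ranks 441 to 1000 and between 0.565% and 1.83% of members in the classes below.

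**Figure D2:**
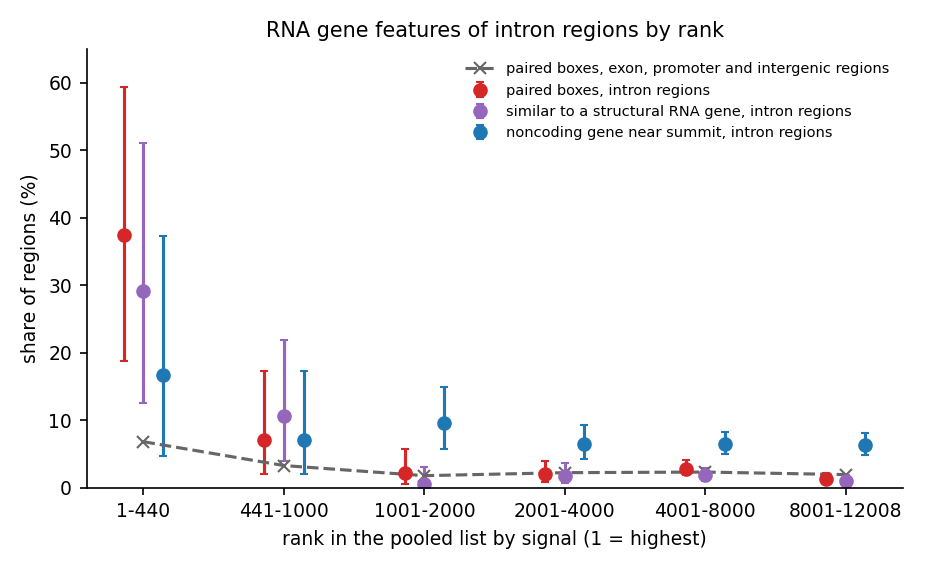
Share of intron regions (y axis, %) with paired boxes, with similarity to a structural RNA gene and with an annotated noncoding gene within 220 bp of the summit, by rank class in the pooled list (x axis). Points are shares, bars are 95% exact intervals, and crosses give the share with paired boxes in exon, promoter and intergenic regions, which is 6.84% at ranks 1 to 440 where that of intron regions is 37.5%. The paired pattern was chosen after such sequences had been seen, and similarity includes windows that lie on a searched RNA gene.

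Of the 48 intron regions with similarity to a structural RNA gene, 32 were most similar to a snoRNA gene, 11 to a tRNA gene and 5 to one of the other RNA genes searched, and 40 had no annotated noncoding gene near the summit. In gpa-1, a G protein alpha subunit gene, the region at pooled rank 516 held T19C4.11, an annotated ncRNA identical over 159 bases to the snoRNA gene T19C4.12. T19C4.16 overlaps it there, and the window had 1 further match in the genome by the measure given for srpr-2.2. In ckb-2, a choline kinase gene, the region at rank 831 held srpr-1.2, another gene of the signal recognition particle RNA, and its window had 3 further matches, so that reads may not be told apart there either. The window at F36H12.17, at rank 915, matched the snoRNA gene W07G1.23 with 98.1% identity over 53 bases. Each of these regions overlapped a peak in both replicates.

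Over all members, annotated noncoding genes were about as frequent near the summits as in intron sequence. A noncoding gene other than a tRNA, snRNA or snoRNA gene lay within 220 bp of 173 of the 2566 summits, or 6.74%, and 6.89% of the eligible intron bases lay as close to one. The share was 6.48% in the list of replicate 1 and 7.63% in that of replicate 2. Among the 821 members that covered no exon base it was 103, or 12.5%, against 8.27% of the intron bases at least as far from exons. The nearest gene was of the general ncRNA class at 109 summits, a piRNA gene at 55, of which 51 were on chromosome IV, a miRNA gene at 8 and an antisense RNA gene at 1. At 61 summits the noncoding gene itself held the summit. Among the upper 1000 ranks the remaining cases were CD4.17 in CD4.11, at rank 866, and the piRNA gene 21ur-14659, which lay 161 bp from the summit in gstk-2 at rank 889.

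The 8 regions near a miRNA gene had pooled ranks between 1770 and 8546. The highest was at mir-2214 in B0361.11, with rank 1770 in the pooled list, a peak ranked 1951 in replicate 2 and none in replicate 1. At cel-mir-357 in symk-1 the pooled rank was 5837, and the region overlapped peaks ranked 8287 and 7092 in the replicates. The antisense RNA gene anr-20 in ppfr-1 held the summit of the region at rank 4555, with ranks 1407 and 5025. None of these 9 regions was in the reproducible list.

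Per base, introns held fewer regions than exons and promoters and more than intergenic sequence. There were 95.1 intron regions per Mb of eligible intron, against 175 per Mb in exons, 173 in promoters and 72.0 in intergenic sequence. In the replicate lists the intron value was 126 in replicate 1 and 125 in replicate 2, with 221 and 205 in exons and 96.4 and 101 in intergenic sequence. In introns of the X chromosome, which the rule leaves out, the value was 80.8 in the pooled list, 122 in replicate 1 and 114 in replicate 2, and 1 such region was in the reproducible list. The order of exon, autosomal intron and intergenic sequence was the same in the pooled list and in both replicate lists.

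Short introns held more regions for their length than long ones. The density was 184 regions per Mb in introns of up to 60 bp, 152 at 61 to 150 bp, 125 at 151 to 400 bp, 94.7 at 401 to 1000 bp, 68.9 at 1001 to 2000 bp and 60.4 at 2001 to 4000 bp. It was 77.1 at 4001 to 8000 bp and 79.0 in longer introns. In replicate 1 it went from 215 in introns of up to 60 bp to 83.1 at 2001 to 4000 bp, and in replicate 2 from 193 to 90.04. The median length of the intron at the summit was 606.5 bp, with an interquartile range of 242 to 1373 bp, whereas the median eligible intron base lay in an intron of 916 bp and the median autosomal intron was 67 bp long.

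**Figure D3:**
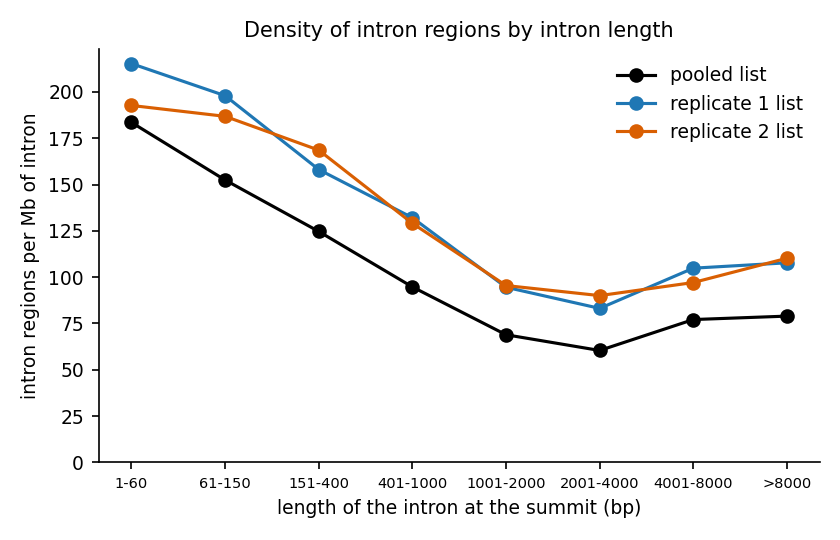
Intron regions per Mb of eligible intron (y axis) by length class of the intron at the summit (x axis, bp), for the pooled list and each replicate list. All 3 lists are highest in introns of up to 60 bp and lowest at 2001 to 4000 bp, where the pooled list has 60.4 regions per Mb.

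Regions in short introns covered exons too. In 1023 members, or 39.9%, the intron was shorter than the region, and 1745 members, or 68.0%, covered at least 1 exon base, with a median of 98.5 exon bases over all members. By distance of the summit from the nearest exon, the density was 140 per Mb within 50 bp, 113 at 51 to 100 bp, 102 at 101 to 200 bp, 76.8 at 201 to 400 bp, 56.0 at 401 to 800 bp and 57.6 at 801 to 1600 bp. Farther out it was 80.3. The replicates gave 179 and 170 within 50 bp and 82.0 and 83.3 at 401 to 800 bp. The 821 members without any exon base had a median intron of 2003 bp.

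Base composition moved with these densities. The density rose from 60.8 per Mb where the 300-base window held less than 30% G+C to 92.7 at 35 to 40% and 304 at 45% or more. In replicate 1 these values were 75.1, 129 and 355, and in replicate 2 they were 104, 122 and 311, with 105 at 30 to 35%, so the lower classes differed little in replicate 2. Windows in introns of up to 60 bp had a median G+C of 37.7% against 32.7% at 401 to 1000 bp. Within windows of 30 to 35% G+C the density was 126 per Mb in introns of up to 400 bp, 86.1 at 401 to 1000 bp and 47.5 in longer ones, and in windows of 40 to 45% it was 167, 112 and 84.4. The fall with length was thus present within each class below 45% G+C. At 45% or more the values were 277, 331 and 303 and did not fall with length.

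**Figure D4:**
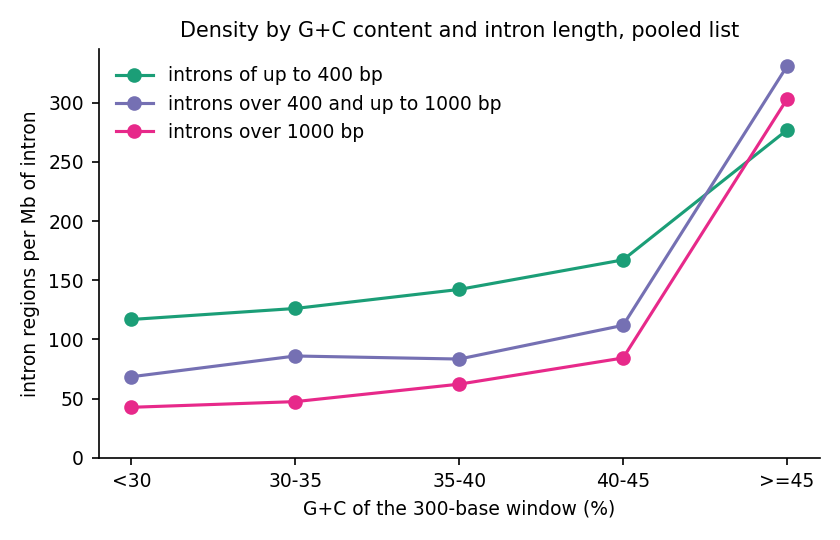
Intron regions of the pooled list per Mb of eligible intron (y axis) by G+C content of the 300-base window (x axis, %), in introns of up to 400, over 400 to 1000 and over 1000 bp. The lines are ordered by intron length below 45% G+C, and all rise to between 277 and 331 per Mb at 45% or more.

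The difference between introns and exons also held within classes of G+C. At 30 to 35% G+C there were 78.6 intron, 131 exon, 155 promoter and 53.6 intergenic regions per Mb, and at 40 to 45% 116, 145, 207 and 85.0. At 45% or more the values were 304, 420, 424 and 264. The median G+C of the windows was 36.7% in intron regions, against 41.3% in exon regions and 38.7% in all autosomal regions, and 34.0% of the intron windows was repeat-masked sequence at the median, against 15.7% in exon regions. The part of G+C content in the densities was not tested further.

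Among other short motifs, GAGAGA was in the window of 15.0% of intron regions and 18.5% of all autosomal regions, CACGTG in 4.72% and 6.06%, and TATAAA in 30.2% and 28.6%, on either strand. Copies elsewhere in the genome, with at least 90% identity over at least 200 bases, were found for 63 of the 2566 windows, or 2.46%, against 5.87% of intergenic, 1.38% of exon and 1.81% of promoter regions.

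First introns and the centres of chromosomes held somewhat more regions than their share of bases. First introns held 667 members, or 26.0%, and 22.5% of the eligible bases, which gives 110 against 90.8 regions per Mb in other introns. The densities were 141 against 122 in replicate 1 and 135 against 122 in replicate 2. With a promoter window of 1000 bp upstream to 500 bp downstream, first introns held 15.4% of the members left and 16.1% of the bases, so the difference was not present outside that window. The middle one of 3 equal segments of each chromosome held 34.2% of the members and 27.9% of the bases, or 116 against 86.9 regions per Mb. It held 148 against 118 per Mb in replicate 1 and 155 against 114 in replicate 2. Along the host gene the density was 102 per Mb in the 5' segment of 3 equal ones, 87.0 in the middle and 97.3 in the 3' segment. The 5 autosomes held between 501 members, on chromosome II, and 520, on chromosomes I and IV. Per Mb of eligible intron, chromosome II was highest with 110, against 99.1 on III, 93.3 on IV, 89.1 on I and 88.1 on V. In the replicate lists chromosome II had 136 and 135 per Mb, little above chromosome III with 132 and 134.

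In all, 2118 of the 17242 autosomal protein-coding genes hosted a member, or 12.3%. A single region was found in 1765 of them, and 268 had 2, 57 had 3, 17 had 4, 3 had 5 and 8 had 6. Genes with an intron of at least 1000 bp were hosts more often, in 1018 of 3466 cases or 29.4%, than genes without one, in 1100 of 13776 or 7.98%. Of the hosts, 31.0% also held an exon region, against 18.2% of all autosomal genes, which include the hosts. The median longest intron was 933 bp in hosts and 379 bp in all autosomal genes, and gene length was not accounted for in these shares.

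The genes with the most members, 6 each, were ncl-1, ercc-1, cdc-25.2, lmd-3, ppfr-1, Y48C3A.5, par-1 and spsb-1. The longest intron of each had at least 6328 bp. The cell cycle phosphatase gene cdc-25.2 had 5 of its 6 regions over a peak of both replicates and had no exon region. In ncl-1, a regulator of nucleolar size, 4 of 6 regions overlapped a peak of both replicates, and the gene also held 5 exon regions. In ercc-1, of nucleotide excision repair, lmd-3, ppfr-1, a regulatory subunit of protein phosphatase 4, and spsb-1 it was 3 of 6. In par-1, a polarity kinase, and Y48C3A.5 it was 1 of 6.

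Next came pqn-41, ptp-3 and Y67D8A.2 with 5 members each. All 5 regions of pqn-41, a gene of a glutamine-rich protein, overlapped a peak of both replicates, and the highest had rank 914 in the pooled list. In ptp-3, a receptor tyrosine phosphatase of axon guidance, 1 of 5 regions did so, with 3 intron regions in the list of replicate 1 and 9 in that of replicate 2. Counts per gene thus differed widely between the replicate lists for some hosts.

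The order of the germline lists by their share of hosts differed between the pooled list and the replicate lists. Of 40 meiosis genes on the autosomes, 9 hosted a member, or 22.5% (10.8 to 38.5%), against 12.3% of all autosomal genes, which lies within the interval. They were zyg-12, htp-1, zim-1 and brc-1 by highest rank, at 2003, 3469, 4864 and 7470, followed by 5 others. zyg-12 links centrosomes to the nuclear envelope, htp-1 is an axis protein, zim-1 acts at pairing centres and brc-1 in DNA repair. In the lists of replicates 1 and 2, 9 and 5 of the 40 were hosts, where 15.3% and 15.1% of all autosomal genes were. Of 28 germ granule and small RNA genes 3 were hosts, namely znfx-1, csr-1 and mut-16 with best ranks 1772, 5890 and 11236. Of 32 genes listed as germline RNA regulators 5 were hosts. The highest were lag-1 at 3878, gld-2 at 7164, atx-2 at 7659 and pie-1 at 10099. Of these lag-1 encodes a transcription factor and held 2 of the 8 members. In the replicate lists 7 and 3 of the 28 germ granule genes and 4 and 5 of the 32 RNA regulators were hosts. Exon regions were more frequent in germ granule genes, in 17 of 28.

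Chromatin regulators were hosts in 10 of 29 cases, or 34.5% (17.9 to 54.3%), and in 10 and 16 in the replicate lists. After mes-4 the highest were spr-5, a histone demethylase, at rank 1285, lin-35, the retinoblastoma homologue, with 3 regions and a best rank of 1935, and lin-13 at 2378. For this list the interval lay above the share of all genes. Members were chosen with earlier results known and 10 lists were counted, so this is a description.

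Among the somatic lists, axon guidance genes had the highest share of hosts in the pooled list and in both replicate lists. Axon guidance and adhesion genes were hosts in 14 of 29 cases, or 48.3% (29.4 to 67.5%), with ptp-3 at rank 1766, fmi-1 at 3648, hmr-1 at 3819 and cdh-8 at 4983. fmi-1, hmr-1 and cdh-8 encode cadherins. In the replicate lists 19 and 20 of the 29 were hosts. Muscle genes were hosts in 10 of 28, led by unc-22 at 1511, unc-60 at 1575, unc-112 at 2016 and unc-89 at 3616, which encode proteins of the contractile apparatus and its attachments. Neuron genes were hosts in 8 of 35, led by unc-104 at 440, unc-43 at 1030, cha-1 at 2006 and unc-103 at 2396. The unc-104 region is the one at the tRNA pseudogene C52E12.t1. In the replicate lists the counts were 11 and 12 for muscle genes and 14 and 12 for neuron genes, so both replicates gave more neuron hosts than the pooled list. Genes listed under extracellular matrix were hosts in 7 of 17, and in 7 and 6 in the replicate lists. They were led by vab-10, mup-4, mig-6 and emb-9, at 2905, 5920, 8227 and 8905. Of these vab-10, which encodes an intracellular linker protein, held 4 of the 10 members. Hosts were 12.3% of all autosomal genes and 29.4% of those with an intron of at least 1000 bp. Among listed genes with such an intron, hosts were 13 of 21 for axon guidance, 8 of 17 for muscle, 6 of 23 for neuron and 4 of 7 for extracellular matrix.

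Per Mb of intron the somatic lists had lower values than the germline and chromatin lists in the pooled list. Replicate 1 kept this order and replicate 2 did not. Axon guidance genes held 66.5 members per Mb, muscle genes 76.2, neuron genes 53.2 and extracellular matrix genes 90.4, against 94.8 over all autosomal genes. Meiosis genes held 195, germ granule genes 118, germline RNA regulators 162 and chromatin regulators 173, on 10, 3, 8 and 13 members. The median longest intron was 2857 bp in axon guidance genes and 200 bp in meiosis genes. In replicate 1 the density was 87.6 for axon guidance, 111 for neuron, 117 for muscle and 99.5 for extracellular matrix genes, and 175 for meiosis, 395 for germ granule, 142 for germline RNA regulator and 173 for chromatin genes. In replicate 2 the somatic values were 145, 102, 111 and 118 and the others 117, 237, 122 and 266. Axon guidance genes at 145 and intestine genes at 123 thus lay above meiosis genes and germline RNA regulators in replicate 2. Extracellular matrix genes lay just above meiosis genes there. Intestine genes held 61.4 per Mb in the pooled list and 123 in each replicate list. Hosts were 2 of the 19, eps-8 at 3532 and pgp-1 at 4721, and 4 in each replicate list. None of 26 cuticle and hypodermis genes was a host, with an exact upper bound of 13.2%, and 16 of the 26 held an exon region.

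**Figure D5:**
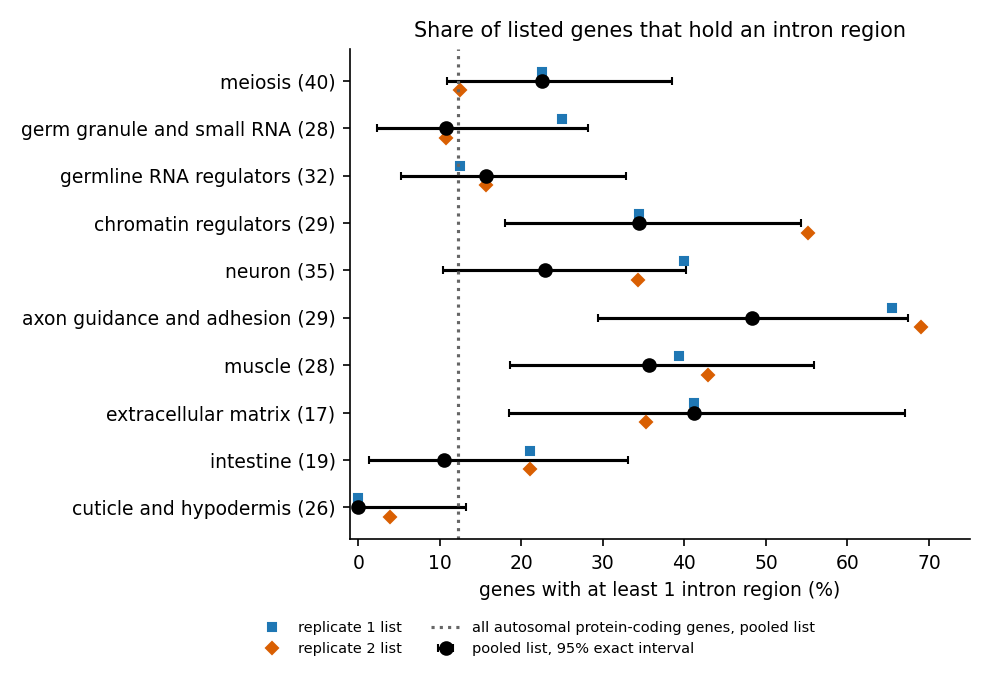
Share of the genes of each list that host at least 1 intron region (x axis, %), with the number of autosomal genes of the list in brackets. Black points and bars give the pooled list with 95% exact intervals, squares and diamonds the replicate lists and the dotted line the 12.3% of all autosomal protein-coding genes, which the intervals of chromatin, axon guidance, muscle and extracellular matrix genes do not reach. The line takes no account of intron length, and 29.4% of genes with an intron of at least 1000 bp are hosts.

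The distance from small RNA genes in the rule had little bearing on the count. Within 221 to 300 bp of a tRNA, snRNA or snoRNA gene lay 4 members, with signals between 28.9 and 48.6 and a median of 37.1. Among intron regions that the rule left out, 12 lay 140 to 220 bp away, with signals between 29.5 and 116 and a median of 38.5. Another pooled region of higher signal overlapped 167 members, or 6.51%, and its summit lay in an exon in 61 of these cases.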

How the data were processed

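MES-4-GFP immunoprecipitates from 2 biological replicates of 1 group were analysed. The deposited files are peak lists on ce11: per the labels and file descriptions, the authors made permissive peak lists, background included, from each replicate and from both together, against a control, and took the reproducible list from these by the irreproducible discovery rate. The deposited signal value of each peak is the authors' own, and it was used for ranks within a list since its scale differs between lists. Neither aligner nor peak caller was named in the labels or files read. Read depth is unknown, and intervals (95%, Clopper-Pearson) cover counting error only.

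Summits were placed on the Ensembl release 115 annotation of WBcel235, with sequence from the RefSeq assembly, and no peak ended beyond its chromosome. The nuclear chromosomes were ranked. Reproducible members were those whose start, end and summit matched the reproducible list. The host is the gene with the shortest intron at the summit, and every gene that holds the summit in an intron was counted as a host. Densities divide by the bases that the same rule makes eligible. Windows of 300 bases were searched for motifs on both strands, with paired boxes 25 to 90 bases apart, and with blastn 2.17.0 (E at most 1e-05). Scripts used Python 3.11.15, and the placing of summits was tested on simulated data.

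Named genes are the hosts of the 20 strongest members, of all reproducible members and of the most members, noncoding genes near summits in the upper 1000, mes-4, and up to 4 hosts per list by rank. Others (F36H12.17, dpy-21, miRNA hosts) were named after their values were seen. The members, lists and motifs were chosen with earlier results of these data known. No test gave a p-value, since there was 1 group. The replicates are biological per the labels, and nothing else on their origin was used.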

Additional observations from a re-analysis of the deposited data

How the results depend on the processing

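Of 101 recomputed values, 57 stayed within 1.5 times the reported count, within the interval of the reported share or within 1 SD of the replicate values, and 44 moved. Placing the small RNA limit at 100 or 500 bp moved none. Where only the whole region without any exon base was taken, 821 regions in 653 hosts were left, 7 of them reproducible, with 66.2 per Mb, a median percentile of 59.3, a median intron of 2003 bp, 31.3% in first introns and 12.5% with a nested gene. With the reproducible list alone there were 24 regions in 23 hosts, 0.89 per Mb, a median intron of 502.5 bp, 33.3% in first introns and 16.7% with a nested gene, and with the upper 2000 regions 257 in 248 hosts, 9.53 per Mb, 531 bp, 32.3% and 9.73%. The lower counts and densities follow from fewer regions, and the cause of the other changes was not tested. The upper part of the reproducible list, cut at its middle, held 8.

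With the wider promoter window the values were 85.9 per Mb, 729 bp, a percentile of 57.8 and 15.4% in first introns, and with every transcript's 5' end 92.0 per Mb, 597.5 bp and 24.2%. Counting a summit that is intronic in at least 1 gene gave 98.0 per Mb and 649 bp. Without regions that overlap a stronger one, an alternative added after seeing the data, the values were 88.9 per Mb, 611 bp, a percentile of 54.6 and 37.4% over peaks of both replicates. With tRNA pseudogenes among the small RNA genes, also added then, the median intron was 604 bp. The share over peaks of both replicates was 33.9% when 50% of the region had to overlap and 21.9% when summits had to lie within 100 bp. The share with a nested gene was 2.38% when that gene had to hold the summit and 4.64% without piRNA genes. Causes beyond these constructions were not tested.

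With 1 replicate left out, the list of the other gave 125 to 126 regions per Mb, a median intron of 649.5 to 652.5 bp and 24.3 to 25.1% in first introns, and its counts of regions, 3382 to 3410, and hosts, 2605 to 2630, were larger than in the pooled list. For the lists, hosts numbered 5 to 9 for meiosis, 3 to 7 for germ granules, 10 to 16 for chromatin, 12 to 14 for neurons, 4 for the intestine in both and 0 to 1 for the cuticle. No paired analysis was possible because there was 1 group. Depth is unknown, signal scales differ between lists, and most intron regions lay among peaks that the authors did not keep as reproducible.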
